A study of Mus musculus with 10 samples.

Results

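The genes described here are the mouse receptors whose symbol is Gpr followed by a number, most of them orphan G protein-coupled receptors whose natural ligand is not settled. Members were the genes whose probe set carried a single symbol of that form, with Gpr83 and Gpr15 left out, and each gene was represented by its brightest probe set. This gave 67 genes out of 19938 with a single symbol on the array. They came from 68 probe sets, since Gpr31b had more than 1. All 67 carried the same symbol in the current RefSeq gene table.

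RNA came from regulatory T cells (Tregs) of the spleen of female C57BL/6 mice aged 9 to 14 weeks, sorted on CD4 and on a red fluorescent Foxp3 reporter that every group carried. Gates on Klrg1, CD69 and CD62L then divided the cells. FR3 Klrg1+ (CD62Llo CD69+ Klrg1+) had 1 array, FR3 Klrg1- (CD62Llo CD69+ Klrg1-) had 4, FR2 (CD62Llo CD69- Klrg1-) had 2 and FR1 (CD62Lhi CD69- Klrg1-) had 2. CD62L is a homing receptor for lymph nodes, CD69 a marker of recent activation and Klrg1 an inhibitory receptor of differentiated lymphocytes. The labels do not say how many mice or cells stood behind an array.

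Values are log2 intensities after RMA, a method that corrects background, normalizes arrays and summarises probes. The median of all probe sets on an array lay between 6.15 and 6.30. The 9 grouped arrays fell into 2 sets by correlation over all genes, with r from 0.972 to 0.992 within a set and from 0.901 to 0.921 between sets. The first set held FR3 Klrg1- replicates 1 and 2 with all FR2 and FR1 arrays, and the second held FR3 Klrg1+ with FR3 Klrg1- replicates 3 and 4. What the sets are is not given in the labels. Between the FR3 Klrg1- arrays of the second set and those of the first, 44 of the 67 Gpr genes did not overlap, 21 higher and 23 lower in the second, against 66.7% of all genes (34.5% higher, 32.2% lower). The fold changes of the main fit below are therefore within a set. Their standard errors and p-values use the spread between arrays of the same group and set, pooled over both sets. The single FR3 Klrg1+ array adds nothing to that spread. Where values of both sets stand side by side, they are a description that includes the difference between sets.

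Of the gate markers, Klrg1 was 12.33 on the FR3 Klrg1+ array, against 7.27 and 7.47 on FR3 Klrg1- replicates 3 and 4. Cd69 transcript did not separate the CD69 gates of the first set, with 12.02 and 12.16 on FR3 Klrg1- replicates 1 and 2 (CD69+) and 11.86 and 12.17 in FR2 (CD69-), against 12.11 and 12.41 in FR1 (CD69-). The CD69 gate, set on the surface protein, is thus not seen in its RNA there, and the groups are called by their labels. All 11 measured T cell and Treg markers were above the array median on each of the 9 arrays, with a list mean of 11.10 to 11.52. No more than 2 of 8 B cell markers, 1 of 8 macrophage and monocyte markers, 1 of 7 dendritic cell markers, 1 of 5 NK cell markers, 2 of 4 platelet markers, 0 of 2 erythroid markers and 0 of 6 neutrophil markers were above it on any array. Of the 2 CD8 T cell markers, 1 to 2 were above it, with Cd8b1 above it on all 9 arrays. Among plasma cell markers 2 to 3 of 5 were above it. Xbp1 and Irf4, which T cells also express, were so on all arrays, and Prdm1 on all but the FR1 arrays. Jchain, at 3.47 to 4.88, was not. In these bulk samples, fewer cells of a type and less RNA per cell cannot be told apart.

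G protein-coupled receptors cross the membrane in a bundle of helices and pass a signal to a G protein alpha subunit inside the cell. Alpha subunits are switched off by RGS proteins, and active receptors are phosphorylated by receptor kinases and bound by arrestins. In lymphocytes such receptors read oxysterols, lysophospholipids, prostaglandins, nucleotides and acidity, and guide where cells move and how they respond. Some proteins numbered as Gpr are not classical receptors at all and sit in the membranes of the Golgi or lysosome.

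The 67 genes spanned a wide range of intensity, from a mean over the 9 arrays of 3.47 for Gpr82 to 10.39 for Gpr183. Probe sets differ in how strongly they respond, so these levels place each gene against the array median and do not rank transcripts. On all 9 arrays, 21 of the 67 genes (31.3%) were above the array median, against 44.1% of all genes (8790). Another 13 were above it on some arrays and 33 on none. The 21 were Gpr183, Gpr65, Gpr174, Gpr132, Gpr107, Gpr18, Gpr155, Gpr108, Gpr171, Gpr52, Gpr89, Gpr180, Gpr27, Gpr31b, Gpr62, Gpr19, Gpr75, Gpr137, Gpr139, Gpr25 and Gpr26. With the median taken over the 19938 genes with a single symbol, 1 probe set a gene, 17 of the 67 genes were above it on all arrays.

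**Figure D1:**
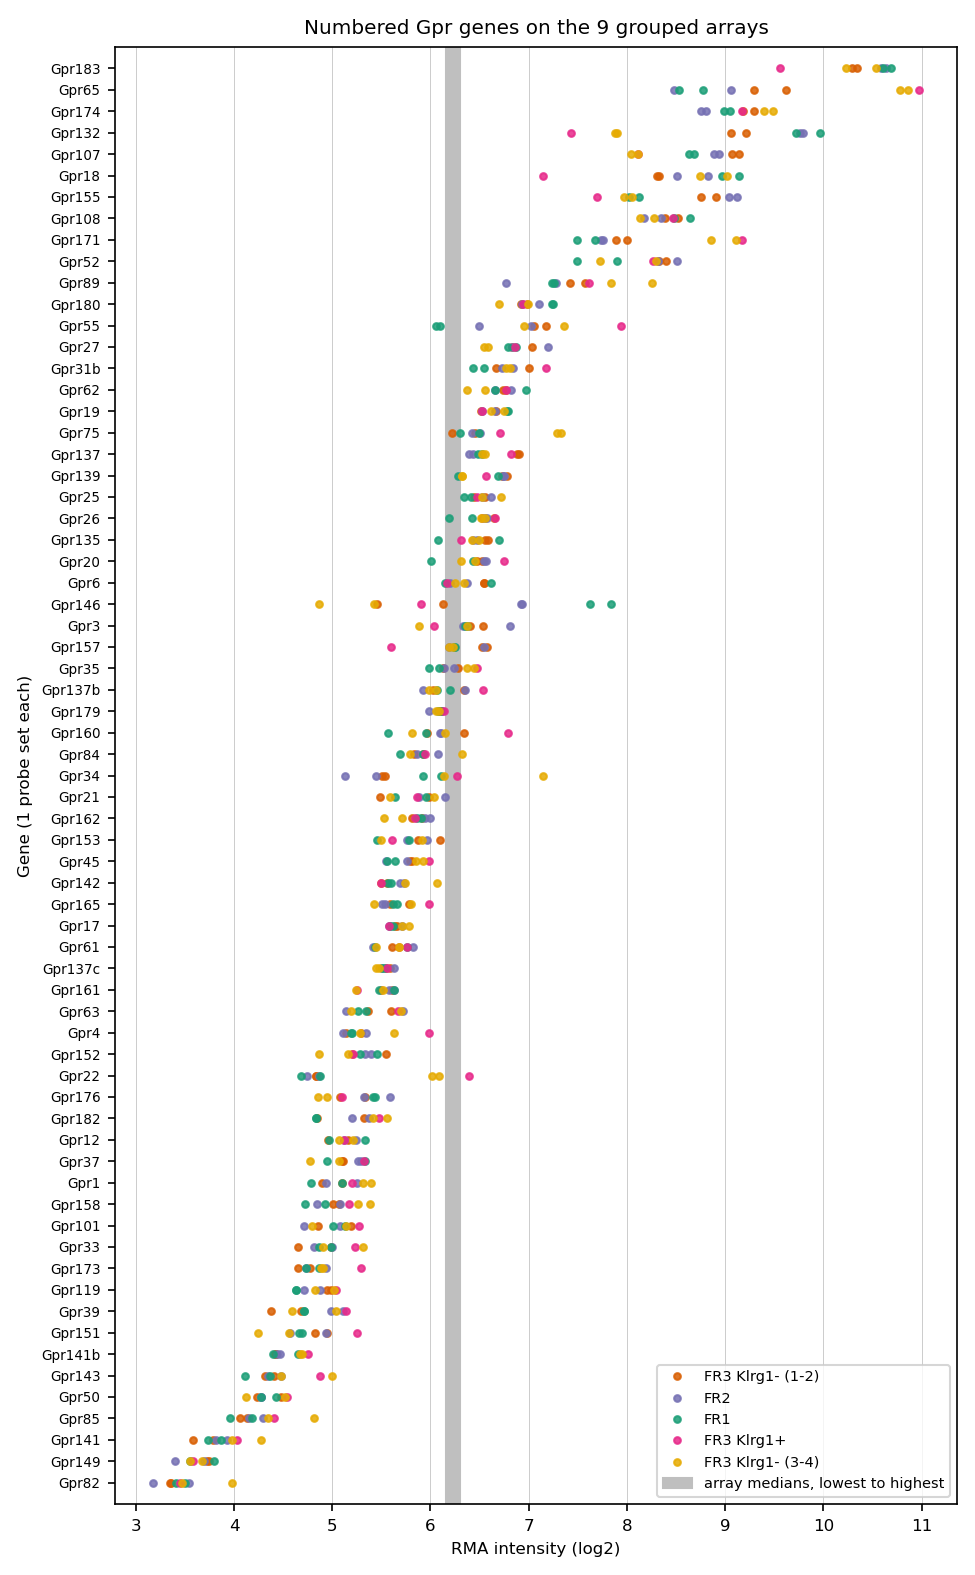
RMA intensity (log2) of the 67 genes on the 9 grouped arrays, ordered by mean, with points coloured by group and the grey band spanning the array medians (6.15 to 6.30). Gpr183 lies at the top with a mean of 10.39, Gpr82 at the bottom with 3.47, and 33 genes have every point below the median of its array.

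By groups of known or proposed function, 4 of the 8 genes listed with the lysophospholipid and lipid mediator receptors, Gpr171 among them, were above the median on all arrays and 2 on none. The corresponding counts were 6 and 2 of 11 for multi-pass membrane proteins outside the main receptor classes. For the remaining class A receptors, many of them studied in the nervous system, they were 8 and 21 of 33. None of the 3 metabolite receptors (Gpr35, Gpr84 and Gpr142), the 3 constitutively Gs-coupled receptors (Gpr3, Gpr6 and Gpr12) or the class C orphans (Gpr158 and Gpr179) was above the median on all arrays.

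The first set compares the groups labelled CD69+ and CD69-, and those labelled CD62Llo and CD62Lhi. Compared with FR1, FR3 Klrg1- had less Gpr146, Gpr18 and Gpr132 and more Gpr55, Gpr65, Gpr155, Gpr52 and Gpr107. Gpr146 was 3.82-fold lower, the widest of these differences, and Gpr55 was 2.05-fold higher. FR2 shared with FR3 Klrg1- the higher Gpr155, Gpr52 and Gpr55 and the lower Gpr146 against the same FR1 arrays. The second set gives the comparison by Klrg1 within FR3, in which Gpr18, Gpr183 and Gpr75 were lower and Gpr151, Gpr160 and Gpr55 higher on the FR3 Klrg1+ array.

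In numbers, 8 of the 67 genes (11.9%) passed an adjusted p of 0.05 in FR3 Klrg1- against FR1, against 8.19% of all genes. The 5 that rose compare with 4.39% of all genes and the 3 that fell with 3.79%. In FR2 against FR1, 4 genes (5.97%) passed, against 4.26% of all genes, with 3 higher (1.96% of all genes) and 1 lower (2.30%). In FR3 Klrg1- against FR2, 5 genes (7.46%) passed, against 4.75% of all genes, with 3 higher (2.81%) and 2 lower (1.94%). In FR3 Klrg1+ against FR3 Klrg1- replicates 3 and 4, 6 genes (8.96%) passed, against 4.96% of all genes, with 3 higher (2.14%) and 3 lower (2.82%). For either direction together these shares lie above the background by few genes, the share that fell in FR2 against FR1 lies below it, and none of these differences was tested.

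Across the 4 comparisons 14 different genes passed at least once, giving 23 calls, and 53 genes passed in none. Of the 14, 10 were above the array median on all arrays, Gpr55, Gpr146 and Gpr160 on some, and Gpr151 on none. Neither count was taken over all genes, so these numbers describe the 67 genes and are not set against a background. The median log2 fold change of the 67 genes was 0.05, 0.06, 0.00 and 0.10 in FR3 Klrg1- against FR1, FR2 against FR1, FR3 Klrg1- against FR2 and FR3 Klrg1+ against FR3 Klrg1-, while over all genes it was 0.02, 0.02, 0.00 and 0.00. All tests were those of limma, with the array set as a term and Benjamini-Hochberg adjustment over all 19938 genes. Values with ± are log2 fold changes with their standard errors unless marked SD. The arrays are labelled as biological replicates and p-values measure only the spread between them, and FR3 Klrg1+, with a single array, is assumed to vary like the other groups. FR3 Klrg1- and FR2 share the FR1 arrays in their comparisons, so these are not independent of each other.

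**Figure D2:**
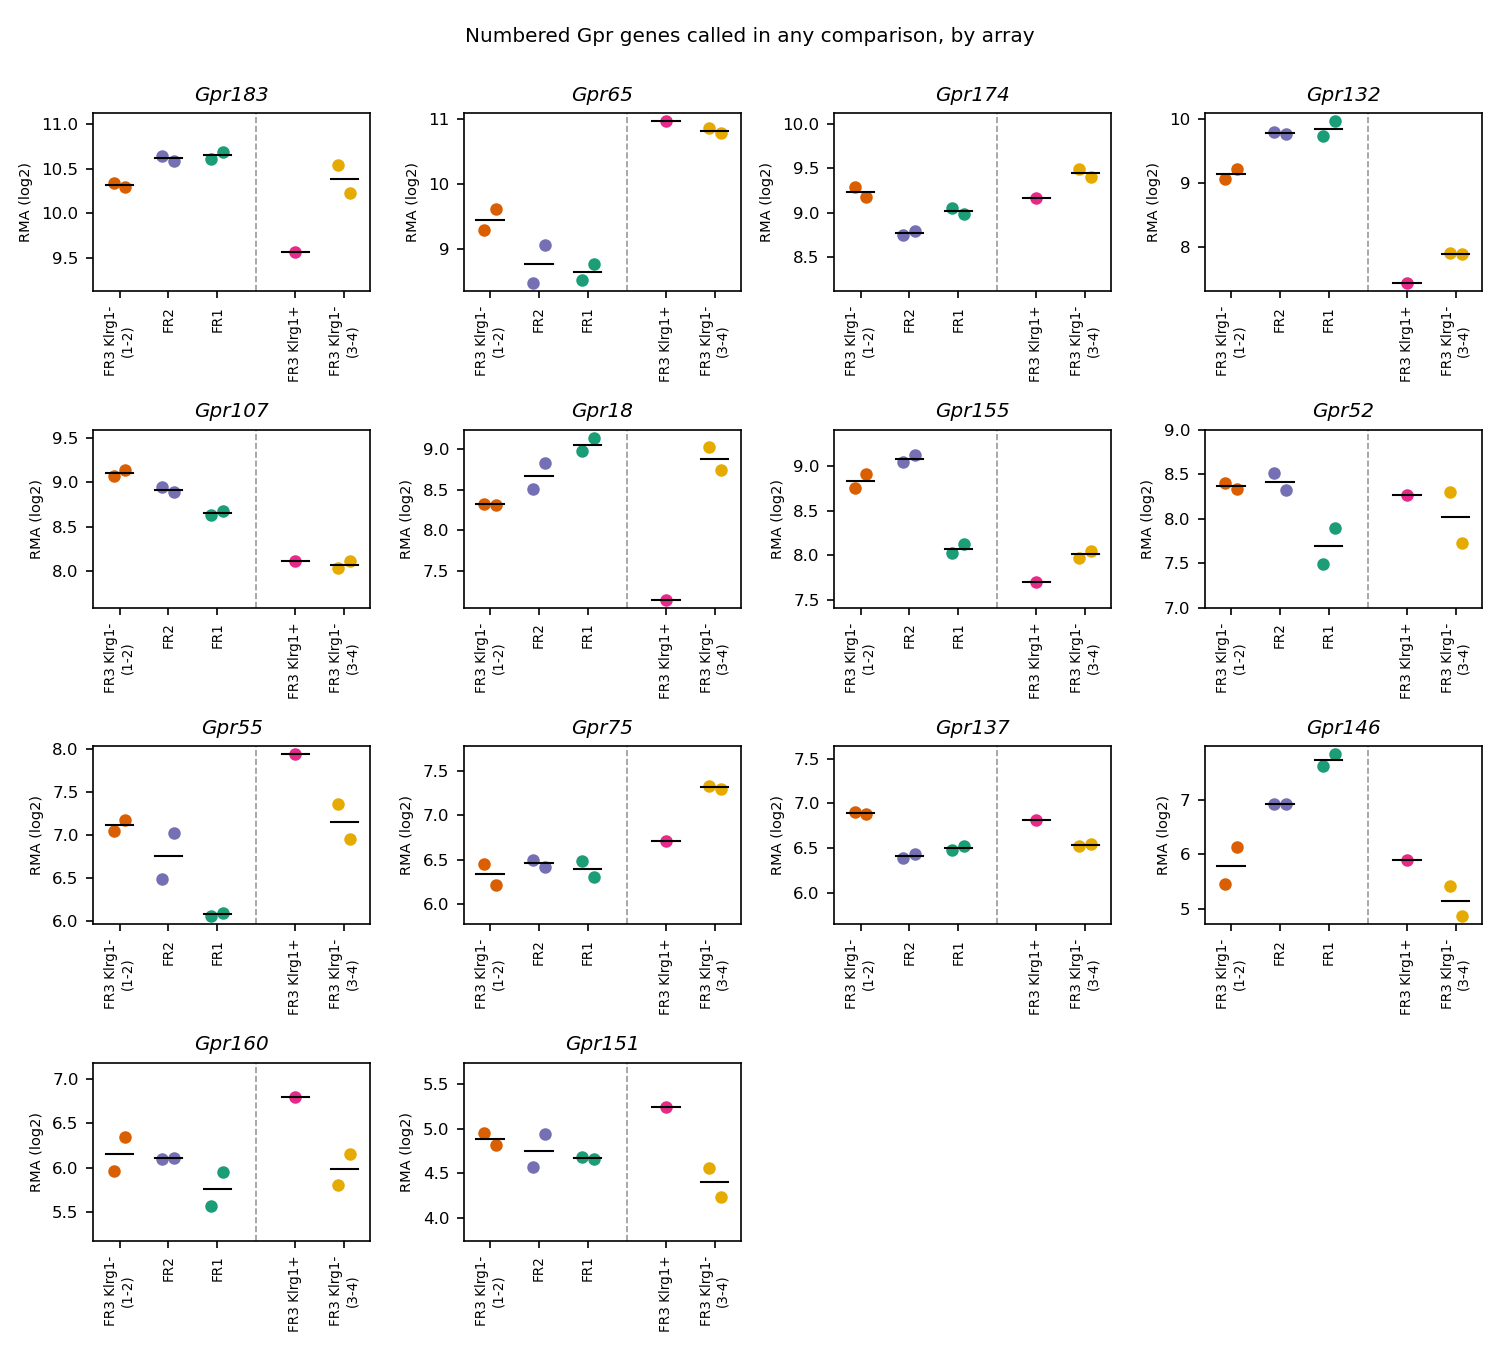
RMA intensity (log2) on each array of the 14 genes that passed in any comparison, with points for arrays, bars for group means and a dashed line between the 2 array sets. Gpr146 is lowest in FR3 Klrg1-, intermediate in FR2 and highest in FR1 of the first set with no overlap, and Gpr18 is lower on the FR3 Klrg1+ array (7.15) than on any other array.

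The calls depended strongly on how the array sets were handled. With no term for the set, 2 of the 23 calls were kept, both in FR3 Klrg1- against FR1, Gpr146 (-2.26 ± 0.30, adjusted p = 0.00927) and Gpr55 (1.06 ± 0.18, adjusted p = 0.0255). The other calls were lost with adjusted p between 0.123 and 0.939, and Gpr107 changed sign there. The fold changes of the calls in FR2 against FR1 were the same in that fit, with larger standard errors, as for Gpr155 (1.01 ± 0.32). Gpr183 in FR3 Klrg1+ against FR3 Klrg1- was -0.79, and Gpr155 in FR3 Klrg1- against FR1 was 0.35. Quantile normalization ended the calls of Gpr55 (adjusted p = 0.0869) and Gpr146 (0.083) in FR2 against FR1 and of Gpr174 in FR3 Klrg1- against FR2 (0.0708), and centring each array on its median ended the first of these (0.0558). In FR3 Klrg1+ against FR3 Klrg1-, array weights ended the calls of Gpr55 (0.0658), Gpr75 (0.0794) and Gpr160 (0.0548), counting every probe set ended those of Gpr55 (0.0545) and Gpr75 (0.0509), centring ended that of Gpr55 (0.0562), and using only the arrays of the set ended that of Gpr75 (0.139).

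The sequence before the start of the genes with the widest differences in FR3 Klrg1- against FR1 is shown. Members that move together can be compared there. RefSeq windows of the GRCm38.p6 assembly run from 250 bases before to 50 bases after an annotated start, and 16 of the 20 genes described individually had at least 1 window. Capitals mark 4 motifs searched on both strands: CCACCC (reverse GGGTGG), which KLF factors bind, TGTGGT (reverse ACCACA), which RUNX factors bind, the forkhead motif TGTTTAC (reverse GTAAACA), and the AP-1 motif TGANTCA. Klf2 and Runx1 act in T cell homing and Treg function, and Foxp3 is itself a forkhead factor. The genes lower in FR3 Klrg1- than in FR1 come first, Gpr146 with the windows numbered 1 and 3 of its annotated starts at chr5:139377447-139377746 and chr5:139389654-139389953 on the plus strand, Gpr132 at chr12:112860867-112861166 and Gpr18 at chr14:121915839-121916138, both on the minus strand. The genes higher there follow, Gpr155 at chr2:73386431-73386730 and Gpr55 at chr1:85961006-85961305, both on the minus strand, and Gpr65 at chr12:98268385-98268684 on the plus strand.
Gpr146 window 1: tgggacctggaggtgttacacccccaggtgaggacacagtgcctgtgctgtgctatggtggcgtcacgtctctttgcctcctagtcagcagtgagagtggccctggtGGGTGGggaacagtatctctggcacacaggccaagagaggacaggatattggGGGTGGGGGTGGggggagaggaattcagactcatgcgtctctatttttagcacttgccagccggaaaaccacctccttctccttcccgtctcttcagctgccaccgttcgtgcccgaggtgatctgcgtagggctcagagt
Gpr146 window 3: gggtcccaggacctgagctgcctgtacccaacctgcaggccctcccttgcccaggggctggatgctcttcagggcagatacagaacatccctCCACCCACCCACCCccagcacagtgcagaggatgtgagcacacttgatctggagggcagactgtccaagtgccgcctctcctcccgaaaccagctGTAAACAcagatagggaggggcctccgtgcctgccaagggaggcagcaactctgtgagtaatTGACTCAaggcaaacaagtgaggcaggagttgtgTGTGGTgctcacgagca
Gpr132: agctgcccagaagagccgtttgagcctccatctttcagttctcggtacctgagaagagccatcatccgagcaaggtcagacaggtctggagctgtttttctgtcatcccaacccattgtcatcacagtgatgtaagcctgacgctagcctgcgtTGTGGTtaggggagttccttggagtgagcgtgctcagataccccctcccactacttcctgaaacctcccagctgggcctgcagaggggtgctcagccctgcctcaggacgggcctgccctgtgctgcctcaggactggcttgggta
Gpr18: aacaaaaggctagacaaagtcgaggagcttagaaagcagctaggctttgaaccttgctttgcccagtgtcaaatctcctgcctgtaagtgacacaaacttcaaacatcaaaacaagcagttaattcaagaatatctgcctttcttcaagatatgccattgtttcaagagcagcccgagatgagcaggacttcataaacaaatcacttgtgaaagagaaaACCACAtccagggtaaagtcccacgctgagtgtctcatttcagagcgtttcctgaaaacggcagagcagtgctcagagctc
Gpr155: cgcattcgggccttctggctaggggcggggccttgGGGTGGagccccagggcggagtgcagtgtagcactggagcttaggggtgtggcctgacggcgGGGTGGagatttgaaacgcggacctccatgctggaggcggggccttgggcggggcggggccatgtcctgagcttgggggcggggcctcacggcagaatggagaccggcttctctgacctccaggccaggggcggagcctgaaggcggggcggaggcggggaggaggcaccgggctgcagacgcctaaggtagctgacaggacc
Gpr55: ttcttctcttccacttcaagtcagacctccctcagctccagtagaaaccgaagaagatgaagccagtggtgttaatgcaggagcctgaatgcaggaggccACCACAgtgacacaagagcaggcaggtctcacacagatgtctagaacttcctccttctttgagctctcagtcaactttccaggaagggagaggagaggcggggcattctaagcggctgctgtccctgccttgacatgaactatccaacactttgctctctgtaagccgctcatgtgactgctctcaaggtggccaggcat
Gpr65: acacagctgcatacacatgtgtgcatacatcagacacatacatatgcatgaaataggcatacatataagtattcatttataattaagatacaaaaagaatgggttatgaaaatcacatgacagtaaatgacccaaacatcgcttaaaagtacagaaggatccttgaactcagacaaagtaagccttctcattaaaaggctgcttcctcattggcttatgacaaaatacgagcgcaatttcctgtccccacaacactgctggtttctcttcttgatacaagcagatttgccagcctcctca

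The KLF letters matched 3 times in each window of Gpr146 shown, the matches of window 3 overlapping one another, and 2 times in that of Gpr155, which changed in the opposite direction. Across all 32851 windows, 31.5% held them. The RUNX letters occurred in the windows of Gpr132, Gpr18 and Gpr55 and in window 3 of Gpr146, against 16.8% of all windows. Over the 21 windows of the 16 genes, 9 held the KLF letters and 7 the RUNX letters. Window 3 of Gpr146 also held a forkhead match, as did 3.65% of all windows, and an AP-1 match, as did 7.81%. None of the 4 motifs was found in the window of Gpr65 or in window 2 of Gpr146, which is not shown. A match is only a match of letters.

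Among oxysterol receptors, Gpr183 (EBI2), which guides lymphocytes along gradients of oxysterol ligands, had the highest intensity of the 67 probe sets. Its levels were 10.34 and 10.29 on FR3 Klrg1- replicates 1 and 2 and 10.64 and 10.59 in FR2, against 10.61 and 10.69 in FR1. In the second set it was 9.56 on the FR3 Klrg1+ array, against 10.54 and 10.23 on FR3 Klrg1- replicates 3 and 4. The FR3 Klrg1+ value lies below all other arrays, and the FR3 Klrg1- arrays of the first set lie below both FR2 and FR1.

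Gpr183 fell by 0.82 ± 0.17 in FR3 Klrg1+ against FR3 Klrg1- (1.77-fold lower, adjusted p = 0.0115). It did not pass in FR3 Klrg1- against FR1 (-0.34, 95% interval -0.63 to -0.05, adjusted p = 0.18), in FR3 Klrg1- against FR2 (-0.30, -0.59 to -0.01, adjusted p = 0.294) or in FR2 against FR1 (-0.04, -0.33 to 0.25). The enzymes that make or break down its ligands (Ch25h, Cyp7b1, Hsd3b7 and Cyp27a1) passed in none of the comparisons. Gpr17, known from oligodendrocytes, was below the array median throughout, with a mean of 5.65.

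Gpr183 and Gpr18 both lie inside the gene Ubac2, as the GRCm38.p6 gene table places them. Ubac2 itself was 7.73 on the FR3 Klrg1+ array, against 8.21 and 8.60 on FR3 Klrg1- replicates 3 and 4 (-0.67 ± 0.18, adjusted p = 0.0426). In FR3 Klrg1- against FR1 it did not pass (-0.46 ± 0.14, adjusted p = 0.0701). Its part in the values of the genes within it was not tested.

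Of the genes listed as proton-sensing receptors, Gpr65 (TDAG8) and Gpr132 were well above the array median while Gpr4, with a mean of 5.35, was below it on all arrays. Gpr65 stood at 9.29 and 9.62 on FR3 Klrg1- replicates 1 and 2 and at 8.48 and 9.06 in FR2, against 8.53 and 8.77 in FR1. Gpr132 stood at 9.06 and 9.21 on these FR3 Klrg1- arrays and at 9.79 and 9.76 in FR2, against 9.72 and 9.96 in FR1. The 2 genes thus moved in opposite directions, and for each the FR3 Klrg1- arrays overlapped with neither CD69- group.

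Gpr65 rose by 0.81 ± 0.18 in FR3 Klrg1- against FR1 (1.75-fold, adjusted p = 0.00926) and by 0.68 ± 0.18 against FR2 (1.60-fold, adjusted p = 0.0424). Gpr132 fell by 0.71 ± 0.13 against FR1 (1.63-fold lower, adjusted p = 0.00256) and by 0.64 ± 0.13 against FR2 (1.56-fold lower, adjusted p = 0.011). Between FR2 and FR1 neither passed. The Gpr65 call against FR1 was lost without FR1 replicate 1 (adjusted p = 0.117) or FR3 Klrg1- replicate 2 (0.144), and that against FR2 without either FR1 array (0.0605 each), FR2 replicate 1 (0.39, adjusted p = 0.512), FR3 Klrg1- replicate 1 (0.0709) or replicate 2 (0.364). The Gpr132 call against FR1 was lost without FR1 replicate 2 (adjusted p = 0.0507) or FR3 Klrg1- replicate 1 (0.0504), and that against FR2 without FR2 replicate 1 (0.113), FR2 replicate 2 (0.0654) or FR3 Klrg1- replicate 1 (0.156).

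In the second set both Gpr65 and Gpr132 were shifted from the first. Gpr65 was 10.97 on the FR3 Klrg1+ array, against 10.86 and 10.78 on FR3 Klrg1- replicates 3 and 4. Gpr132 was 7.43 on the FR3 Klrg1+ array, against 7.90 and 7.88 on FR3 Klrg1- replicates 3 and 4 (-0.46, 95% interval -0.81 to -0.11, adjusted p = 0.122). Between FR3 Klrg1- replicates 3 and 4 and replicates 1 and 2, arrays with the same label, Gpr65 differed by 1.36 and Gpr132 by -1.24, which is more than either differed between labelled subsets in the first set.

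The receptors for lysophospholipids and related lipid mediators included 3 genes that passed. Gpr174, a receptor for lysophosphatidylserine that acts on Tregs, was 9.29 and 9.18 on FR3 Klrg1- replicates 1 and 2 and 8.75 and 8.80 in FR2, against 9.05 and 8.99 in FR1. It rose by 0.46 ± 0.12 in FR3 Klrg1- against FR2 (1.38-fold, adjusted p = 0.0469). This call was lost without any 1 of the 6 arrays of the first set, with adjusted p from 0.065 without an FR1 array to 0.361 without FR3 Klrg1- replicate 1. Gpr34, another lysophosphatidylserine receptor, passed in no comparison, with 5.13 and 5.45 in FR2 against 5.92 and 6.11 in FR1 (-0.73, 95% interval -1.23 to -0.23, adjusted p = 0.102).

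Gpr18, for which lipid ligands such as N-arachidonyl glycine have been proposed, was 8.33 and 8.31 on FR3 Klrg1- replicates 1 and 2 and 8.51 and 8.83 in FR2, against 8.97 and 9.14 in FR1. In the second set it was 7.15 on the FR3 Klrg1+ array, against 9.02 and 8.74 on FR3 Klrg1- replicates 3 and 4. In each set the arrays of the groups did not overlap, and the FR3 Klrg1+ array lay furthest down. FR3 Klrg1- replicates 3 and 4 differed from replicates 1 and 2, arrays with the same label, by 0.57. Gpr18 fell by 1.73 ± 0.18 in FR3 Klrg1+ against FR3 Klrg1- (3.31-fold lower, adjusted p = 8.18e-05) and by 0.74 ± 0.15 in FR3 Klrg1- against FR1 (1.67-fold lower, adjusted p = 0.0041). The second of these was lost without FR1 replicate 2 (adjusted p = 0.0638). FR2 differed from FR1 by -0.39, which did not pass (adjusted p = 0.174). With no term for the array set, the value for FR3 Klrg1- against FR1 was -0.46 (adjusted p = 0.39).

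Gpr55, a receptor for lysophosphatidylinositol, was 7.05 and 7.18 on FR3 Klrg1- replicates 1 and 2 and 6.49 and 7.02 in FR2, against 6.06 and 6.10 in FR1. In the second set it was 7.94 on the FR3 Klrg1+ array, against 7.36 and 6.95 on FR3 Klrg1- replicates 3 and 4. FR1 lay below all other arrays and FR3 Klrg1+ above all of them. Gpr55 rose by 1.04 ± 0.18 in FR3 Klrg1- against FR1 (adjusted p = 0.00106), by 0.67 ± 0.18 in FR2 against FR1 (1.59-fold, adjusted p = 0.0433) and by 0.79 ± 0.21 in FR3 Klrg1+ against FR3 Klrg1- (1.72-fold, adjusted p = 0.049).

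The first of these Gpr55 calls was kept without each array in turn. The call in FR2 was lost without FR1 replicate 1 (adjusted p = 0.175), FR1 replicate 2 (0.204), FR2 replicate 2 (0.40, adjusted p = 0.325) or FR3 Klrg1- replicate 1 or 2 (0.059 each). The call in FR3 Klrg1+ was lost without either FR1 array (0.0732 each), FR3 Klrg1- replicate 1 or 2 (0.0673 each) or replicate 4 (0.116).

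The other lipid receptors passed in none of the comparisons. Gpr171, for which a neuropeptide ligand has been proposed, was 7.89 and 8.0 on FR3 Klrg1- replicates 1 and 2 and 7.74 and 7.76 in FR2, against 7.49 and 7.67 in FR1 (0.36 for FR3 Klrg1- against FR1, 95% interval 0.07 to 0.66, adjusted p = 0.14). It was 9.17 on the FR3 Klrg1+ array, against 9.11 and 8.86 on FR3 Klrg1- replicates 3 and 4, so the 2 sets differ more than the groups. Gpr31b ran from 6.43 to 7.18 over the 9 arrays. Gpr119, a receptor of gut endocrine cells, and Gpr82 were below the median on all arrays.

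Among the multi-pass membrane proteins Gpr155, a lysosomal protein that senses cholesterol, gave the widest difference between FR2 and FR1. It was 8.75 and 8.91 on FR3 Klrg1- replicates 1 and 2 and 9.04 and 9.12 in FR2, against 8.02 and 8.12 in FR1. Both CD62Llo groups lay above FR1 without overlap. Gpr155 rose by 1.01 ± 0.13 in FR2 against FR1 (2.02-fold, adjusted p = 0.000227) and by 0.76 ± 0.13 in FR3 Klrg1- against FR1 (1.70-fold, adjusted p = 0.00103), and both calls were kept without each array in turn. In the second set it was 7.70 on the FR3 Klrg1+ array, against 7.97 and 8.05 on FR3 Klrg1- replicates 3 and 4, all below the FR3 Klrg1- arrays of the first set.

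Gpr107, a Golgi protein of membrane trafficking, was 9.07 and 9.14 on FR3 Klrg1- replicates 1 and 2 and 8.94 and 8.89 in FR2, against 8.63 and 8.68 in FR1. It rose by 0.45 ± 0.12 in FR3 Klrg1- against FR1 (1.37-fold, adjusted p = 0.0326). With no term for the array set the value was -0.06 (adjusted p = 0.939). The call was also lost without any 1 of the 6 arrays of the first set (adjusted p 0.052 to 0.25). Its paralog Gpr108 passed in no comparison and ran from 8.13 to 8.64 over the 9 arrays.

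Gpr137, a lysosomal membrane protein, was 6.90 and 6.88 on FR3 Klrg1- replicates 1 and 2, against 6.39 and 6.43 in FR2, and FR1 had 6.48 and 6.52. It rose by 0.48 ± 0.12 in FR3 Klrg1- against FR2 (1.39-fold, adjusted p = 0.0353), a call lost without any 1 of the 6 arrays of the first set (adjusted p 0.0506 to 0.253). Against FR1 the difference of 0.39 did not pass (adjusted p = 0.0674). Its gene partly overlaps Bad, which did not pass in that comparison (0.01 ± 0.14).

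Gpr160, an orphan, was 6.79 on the FR3 Klrg1+ array, against 5.81 and 6.15 on FR3 Klrg1- replicates 3 and 4. It rose by 0.81 ± 0.21 there (1.75-fold, adjusted p = 0.0376), a call lost without FR2 replicate 1 or 2 (adjusted p = 0.0611 each) or FR3 Klrg1- replicate 3 (0.63, adjusted p = 0.106). In the first set it ran from 5.57 to 6.34 and did not pass. Of the 11 multi-pass proteins the other 7 passed in no comparison, among them Gpr89, a Golgi pH regulator (6.77 to 8.25 over the 9 arrays), and Gpr180 (6.70 to 7.25).

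Gpr146, an orphan receptor known for its effect on blood cholesterol through the liver, gave the widest difference among the 67 genes. It was 5.46 and 6.13 on FR3 Klrg1- replicates 1 and 2 and 6.92 and 6.93 in FR2, against 7.62 and 7.84 in FR1. The 3 groups did not overlap, and only the FR3 Klrg1- arrays were below the array median. Gpr146 fell by 1.93 ± 0.21 in FR3 Klrg1- against FR1 (adjusted p = 1.67e-05), by 1.13 ± 0.21 in FR3 Klrg1- against FR2 (2.19-fold lower, adjusted p = 0.00476) and by 0.81 ± 0.21 in FR2 against FR1 (1.75-fold lower, adjusted p = 0.0406).

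The first of these Gpr146 calls was kept without each array in turn (-2.27 to -1.59). The second was lost without FR2 replicate 1 (adjusted p = 0.0596) or FR3 Klrg1- replicate 1 (-0.79, adjusted p = 0.094). The call in FR2 against FR1 was lost without FR1 replicate 1 (0.112), FR1 replicate 2 (0.303), FR2 replicate 1 (0.258) or FR2 replicate 2 (0.146). In the second set Gpr146 was 5.90 on the FR3 Klrg1+ array, against 5.43 and 4.87 on FR3 Klrg1- replicates 3 and 4 (0.75, 95% interval 0.21 to 1.29, adjusted p = 0.108). All FR3 arrays of both sets thus lay at or below 6.13. Gpr146 lies inside 3110082I17Rik, which passed in none of the comparisons and differed by 0.17 ± 0.14 between FR3 Klrg1- and FR1.

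Gpr52, a Gs-coupled receptor best known from the striatum, was 8.40 and 8.33 on FR3 Klrg1- replicates 1 and 2 and 8.51 and 8.32 in FR2, against 7.49 and 7.90 in FR1. It rose by 0.67 ± 0.18 in FR3 Klrg1- against FR1 (1.59-fold, adjusted p = 0.0312) and by 0.72 ± 0.18 in FR2 against FR1 (1.65-fold, adjusted p = 0.035). The first was lost without FR1 replicate 1 (0.47, adjusted p = 0.284), FR3 Klrg1- replicate 1 (0.173) or replicate 2 (0.124), and the second without FR1 replicate 1 (0.246), FR2 replicate 1 (0.318) or FR2 replicate 2 (0.0871). Gpr52 lies inside Rabgap1l, a gene at 10.04 and 10.06 on FR3 Klrg1- replicates 1 and 2, against 9.37 and 9.50 in FR1 (0.62 ± 0.14, adjusted p = 0.00918). Its part in the Gpr52 values was not tested.

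Gpr151 and Gpr75, also class A orphans, passed in the second set. Gpr151, a receptor of the habenula, was 5.25 on the FR3 Klrg1+ array, against 4.56 and 4.24 on FR3 Klrg1- replicates 3 and 4 (0.85 ± 0.19, 1.80-fold higher, adjusted p = 0.0186). All its arrays were below the array median. Gpr75 was 6.71 on the FR3 Klrg1+ array, against 7.33 and 7.29 on FR3 Klrg1- replicates 3 and 4 (-0.60 ± 0.16, 1.52-fold lower, adjusted p = 0.049), and this call was lost when any 1 of the other arrays was left out (adjusted p 0.0522 to 0.0812). Gpr75 lies inside Erlec1, which did not pass there (0.10 ± 0.16) and was 9.35 and 9.11 on FR3 Klrg1- replicates 3 and 4, against 7.84 and 7.88 on replicates 1 and 2. Of these 33 class A receptors the other 29 passed in no comparison.

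**Figure D3:**
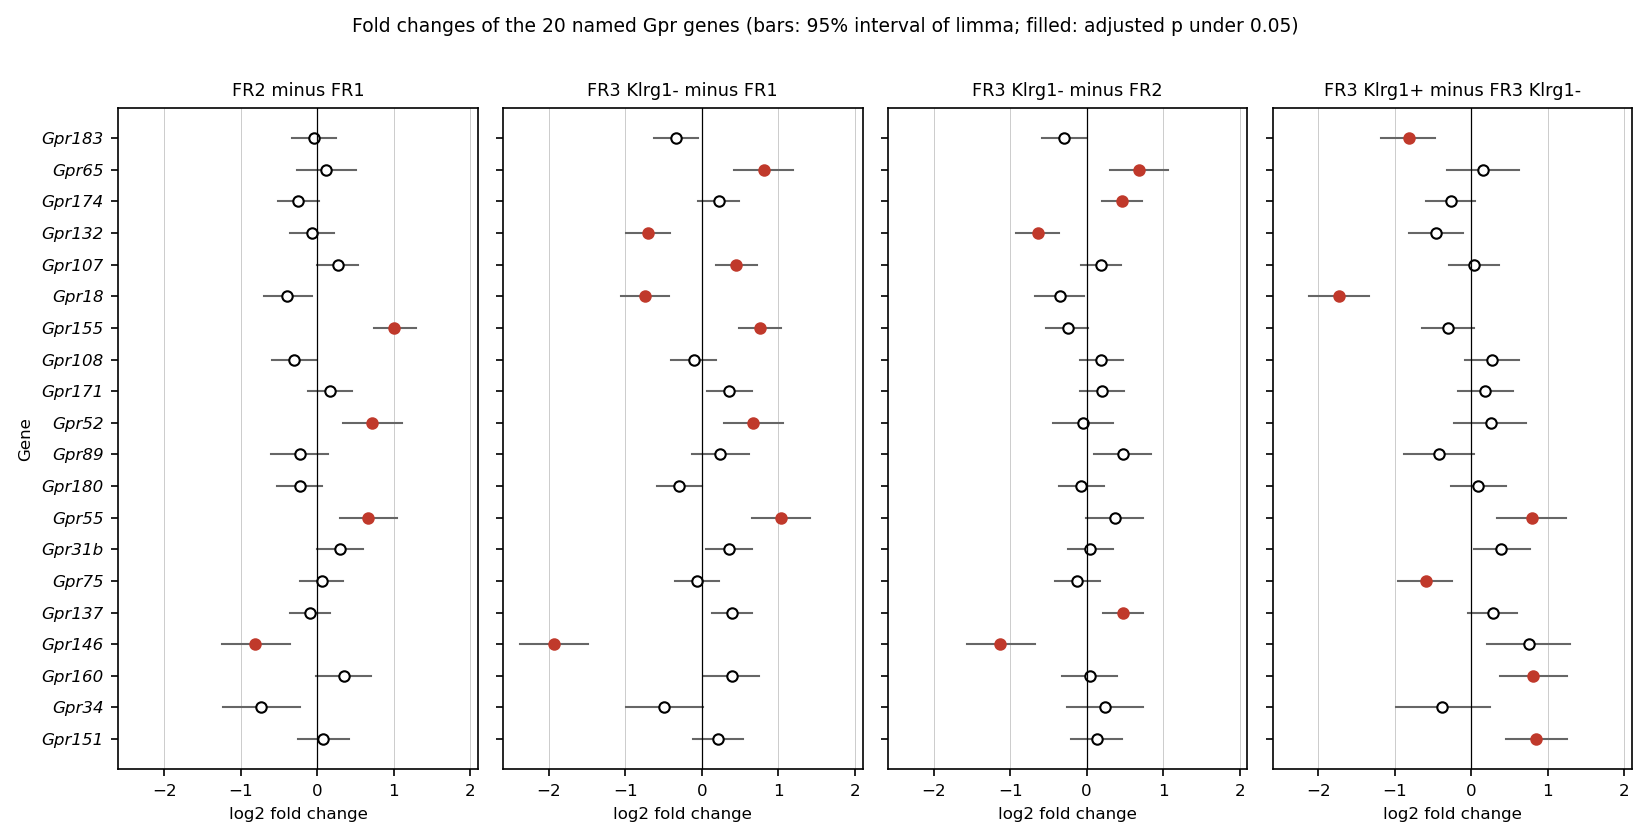
Log2 fold changes of the 20 genes described individually in the 4 comparisons, with 95% intervals of limma and filled points for an adjusted p under 0.05. Gpr146 (-1.93) and Gpr55 (1.04) are the outermost points in FR3 Klrg1- against FR1, and Gpr18 (-1.73) in FR3 Klrg1+ against FR3 Klrg1-.

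Genes that did not pass in a comparison had log2 fold changes between -0.49 and 0.39 in FR3 Klrg1- against FR1 (59 genes) and between -0.73 and 0.45 in FR2 against FR1 (63 genes). For FR3 Klrg1- against FR2 the range was -0.52 to 0.47 over 62 genes, and for FR3 Klrg1+ against FR3 Klrg1- it was -0.61 to 0.75 over 61. The means of the 3 groups of the first set spanned a median of 0.20 per gene, and 3 genes spanned more than 1. A missed threshold does not show that these genes were alike between subsets.

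Some marker lists of other cells moved in the same comparisons. The mean of the 5 NK cell markers was 5.12 to 5.18 on FR3 Klrg1- replicates 1 and 2 and 4.72 to 4.92 in FR2, against 4.85 to 4.88 in FR1, with none of them above the array median there. Among them Klrb1c was 5.90 and 5.84 on FR3 Klrg1- replicates 1 and 2, against 4.71 and 4.73 in FR1, and Ncr1 was also higher. Tyrobp was lower, at 5.94 and 6.00 against 6.01 and 6.13, and Klra8 and Eomes overlapped. On FR3 Klrg1- replicates 1 and 2 the mean of the 5 plasma cell markers was 6.94 and 7.18. It was 6.84 and 6.94 in FR2, against 6.77 and 6.70 in FR1. On the FR3 Klrg1+ array it was 6.92, against 6.55 and 6.48 on FR3 Klrg1- replicates 3 and 4, with 3 of 5 above the median in both. Of these 5 genes Prdm1 was 9.14 there, against 7.97 and 7.77. Sdc1 and Jchain were also higher, while Xbp1 and Irf4 were not higher than both FR3 Klrg1- arrays. On the same arrays the NK cell mean was 5.16, against 5.38 and 5.77, the macrophage and monocyte mean 5.36, against 5.55 and 5.65, the erythroid mean 6.21, against 5.91 and 5.80, and the dendritic cell mean 5.42, against 5.07 and 5.25. Of the NK cell markers Tyrobp was 6.75, against 7.61 and 8.19, and Klrb1c and Eomes were also lower. Ncr1 and Klra8 lay between the FR3 Klrg1- arrays. The mean of the 2 CD8 markers was 6.62 to 6.68 on FR3 Klrg1- replicates 1 and 2 and 6.75 to 6.88 in FR2, against 6.99 to 7.19 in FR1. Their part in the results for the Gpr genes was not tested.

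Receptors with known lipid, nucleotide or metabolite ligands work beside the orphans. Of 41 measured, 2 rose and 5 fell in FR3 Klrg1- against FR1, where 4.39% of all genes rose and 3.79% fell, with a median log2 fold change of 0.02, against 0.02 over all genes. S1pr1, which guides lymphocytes out of tissue, was 9.65 and 9.75 on FR3 Klrg1- replicates 1 and 2, against 12.09 and 12.05 in FR1, and fell by 2.37 ± 0.12 (5.17-fold lower, adjusted p = 2.17e-08). S1pr4 fell by 1.40 ± 0.16 and the cannabinoid receptor Cnr2 by 0.66 ± 0.18. The leukotriene receptor Cysltr2 rose by 1.93 ± 0.15, from low intensities of 6.67 and 6.71 in FR3 Klrg1- against 4.56 and 4.97 in FR1, and the prostaglandin E2 receptor Ptger2 rose by 1.22 ± 0.15.

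In FR3 Klrg1- against FR2, 1 of these 41 rose (Ptger2, 0.74 ± 0.15) and 5 fell, S1pr1 among them (-2.18 ± 0.12), where 2.81% of all genes rose and 1.94% fell. In FR2 against FR1, 3 rose, namely Cysltr2 (1.49 ± 0.15), Cysltr1 (0.89 ± 0.15) and the lysophosphatidic acid receptor Lpar6 (0.87 ± 0.15), and Cnr2 fell by 0.74 ± 0.18, where 1.96% of all genes rose and 2.30% fell. In FR3 Klrg1+ against FR3 Klrg1-, where 2.14% of all genes rose and 2.82% fell, P2ry14, a receptor for UDP sugars, rose by 0.90 ± 0.18 and the prostacyclin receptor Ptgir by 0.61 ± 0.15. Cnr2 was 5.01 on the FR3 Klrg1+ array, against 6.73 and 6.19 on FR3 Klrg1- replicates 3 and 4, and fell by 1.45 ± 0.23 (adjusted p = 0.00229).

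Most of the genes for signal partners inside the cell did not pass. Of 14 G protein alpha subunits, 2 rose in FR3 Klrg1- against FR1, where 4.39% of all genes rose, and the median of the 14 was 0.12, against 0.02 over all genes. Gnaq, which couples receptors to phospholipase C, was 9.20 and 9.24 on FR3 Klrg1- replicates 1 and 2 and 8.28 and 8.23 in FR2, against 7.01 and 7.47 in FR1. It rose by 1.98 ± 0.16 in FR3 Klrg1- against FR1 (adjusted p = 8.93e-07) and by 1.01 ± 0.16 in FR2 against FR1, and its relative Gna14 rose by 1.68 ± 0.19 in FR3 Klrg1- against FR1. Gna15, of the same family, rose by 1.32 ± 0.16 in FR2 against FR1 and by 1.11 ± 0.20 in FR3 Klrg1+ against FR3 Klrg1-, and fell by 1.08 ± 0.16 in FR3 Klrg1- against FR2.

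Of 19 RGS genes, 3 rose and 2 fell in FR3 Klrg1- against FR1, where 4.39% of all genes rose and 3.79% fell, with a median of 0.09. Rgs9 rose by 1.59 ± 0.14, Rgs16 by 1.44 ± 0.14 and Rgs1 by 0.59 ± 0.13, while Rgs14 fell by 0.59 ± 0.13 and Rgs19 by 0.56 ± 0.15. In FR3 Klrg1- against FR2 Rgs16 (1.44 ± 0.14) and Rgs9 (1.26 ± 0.14) rose, in FR2 against FR1 Rgs1 (0.55 ± 0.13), and in FR3 Klrg1+ against FR3 Klrg1- Rgs2 (0.65 ± 0.17). Among 9 arrestin and receptor kinase genes, the median was 0.06 in FR3 Klrg1- against FR1. Grk6 fell by 0.83 ± 0.13 in FR3 Klrg1- against FR1 and by 0.55 ± 0.13 against FR2, where 3.79% and 1.94% of all genes fell. Between arrays with the same label it differed more, with 9.59 and 9.47 on FR3 Klrg1- replicates 1 and 2 and 7.31 and 7.44 on replicates 3 and 4. The alternative fits were followed gene by gene for the Gpr genes only, not for these other receptors and partners.

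**Figure D4:**
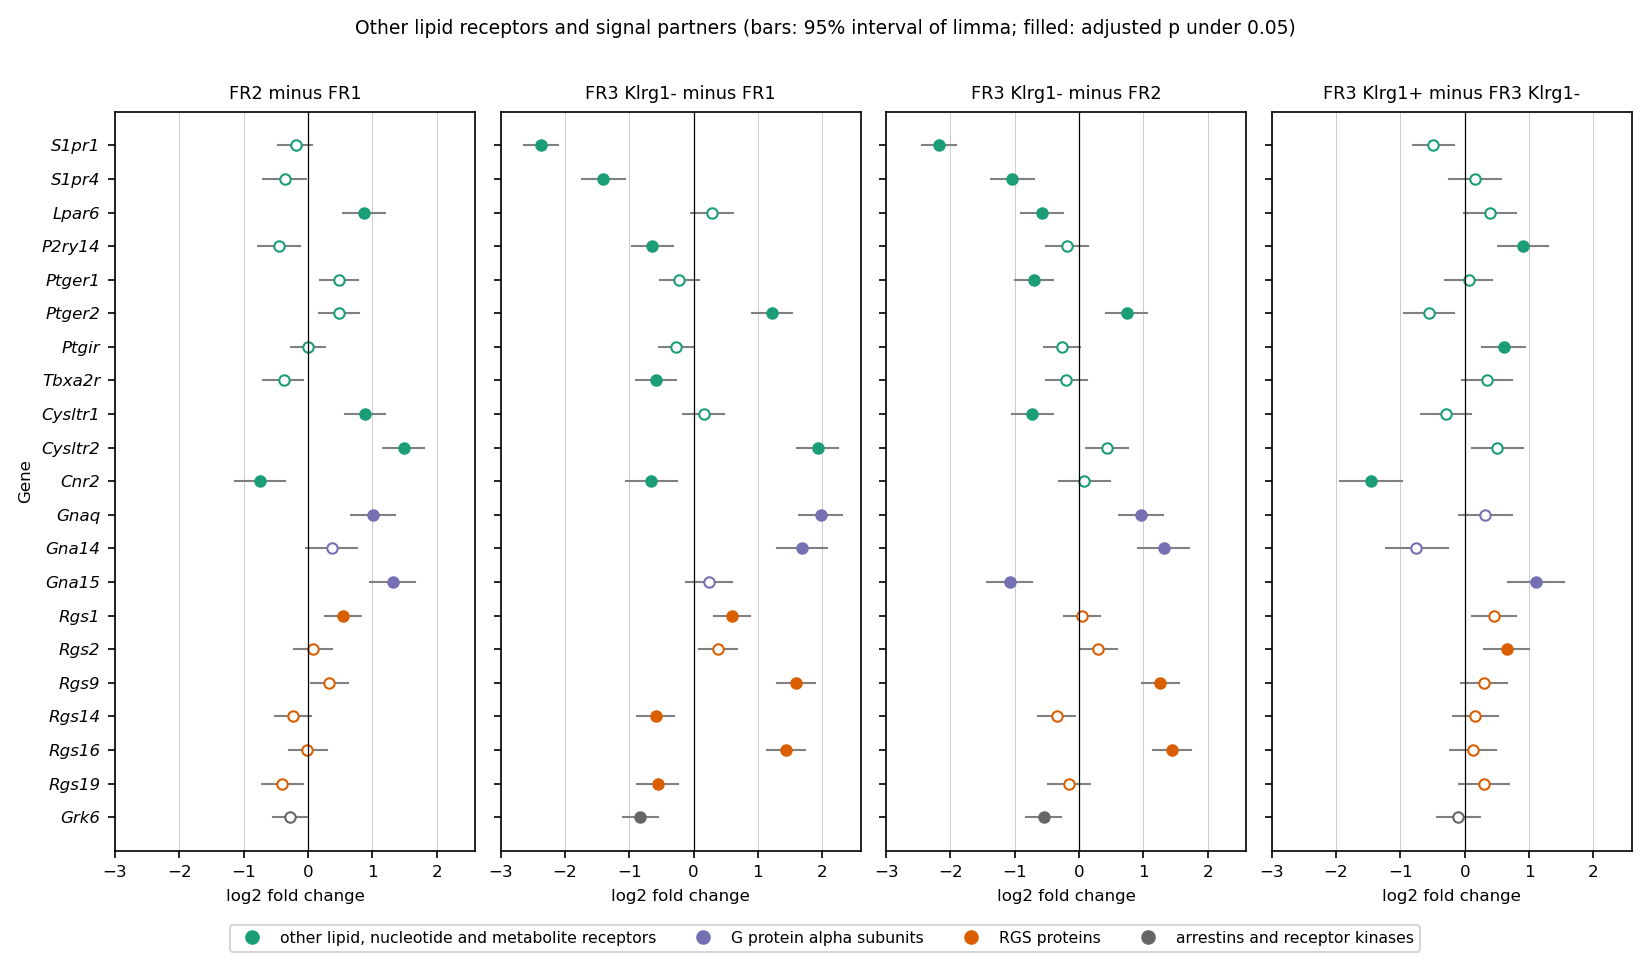
Log2 fold changes of the lipid, nucleotide and metabolite receptors, G protein alpha subunits, RGS proteins and receptor kinases that passed in any comparison, with 95% intervals of limma and filled points for an adjusted p under 0.05. S1pr1 (-2.37) and Gnaq (1.98) lie at the extremes in FR3 Klrg1- against FR1.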

How the data were processed

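RNA of sorted spleen Tregs was amplified from 20 to 50 ng per sample with a NuGEN system and measured on Affymetrix arrays (Mouse Gene ST 1.0), per the labels. The deposited values are log2 intensities made with RMA, per the submitters' processing notes; its version and whether the arrays were normalized together are not given in the sources used here. Of 35556 probe sets, 21789 had 1 symbol in the platform annotation, 1621 had several and 12146 were not listed. Each gene was represented by its brightest probe set, by the mean of the 9 grouped arrays, without a filter on low values, which left 19938 genes. An array titled as FR3 with the marker text of FR1 was placed in no group.

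The comparisons used limma 3.58.1 in R 4.3.3, in 1 fit with terms for group and array set, moderated variances and Benjamini-Hochberg adjustment at 0.05. The fit was tested on data simulated from its own model, with independent errors and equal spread in all groups. Such data cannot check these assumptions, nor that FR3 Klrg1+ varies like the other groups. The number of arrays limits the precision. Replicate numbers were not taken to pair arrays, since the correlations of same-numbered deviations between groups were 0.181, 0.144 and 0.023. Alternatives were a fit with no array set, only the arrays of the set, an intensity trend, a filter at percentile 40 of the mean, quantile normalization, median centring, every probe set, the mean of probe sets, array weights, a replicate block and leaving out each array.

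Genes named were those called in any comparison, the 12 with the highest mean, proton, oxysterol and lipid receptors above the median on any array, and up to 5 called genes of each list of other receptors and partners. Members, lists and array sets were chosen with earlier results of these data known. A list of adhesion receptors under old Gpr names had 0 measured members. Promoter windows and gene overlaps are from RefSeq, assembly GRCm38.p6.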

Additional observations from a re-analysis of the deposited data

Results flagged for a closer look

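Gpr52 was 7.73 on FR3 Klrg1- replicate 4, against 8.30 to 8.40 on the other 3 arrays of that group, a gap wide enough to pass Dixon's critical value for 4 samples. This was tested for the 20 genes described individually in the only group of 4 arrays, which spans both array sets, and chance gives about 1 such result in 20 groups. The same array enters the comparison of FR3 Klrg1+ with FR3 Klrg1-, in which Gpr52 did not pass.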

How the results depend on the processing

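Of 424 alternative values of the 23 calls, 325 kept direction and call, 98 kept direction and lost the call, and 1 reversed, Gpr107 in FR3 Klrg1- against FR1 with no array set (-0.06). Part of these outcomes was fixed in advance. Leaving out an array outside a comparison cannot change its fold change, so direction could not fail there. Leaving out the FR3 Klrg1+ array could not change the 17 calls of the first set at all, and these count among those kept. In the order FR3 Klrg1- against FR1, FR2 against FR1, FR3 Klrg1- against FR2 and FR3 Klrg1+ against FR3 Klrg1-, the Gpr calls were 8, 4, 5 and 6. With no array set they were 2, 0, 0 and 0, and over all genes 439, 52, 55 and 22 in place of 1632, 850, 948 and 989. Quantile normalization gave 2 Gpr calls in FR2 against FR1, and array weights gave 3 in FR3 Klrg1+. Over all genes, FR2 against FR1 had 1331 calls with only the arrays of the set and 1401 with the percentile filter, and FR3 Klrg1- against FR2 had 1618 with array weights. Leaving out 1 array gave 5 to 10, 1 to 5, 0 to 6 and 4 to 6 Gpr calls, and 910 to 2063, 253 to 1331, 302 to 1318 and 721 to 1553 over all genes.

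Centring changed the split over all genes from 391 higher and 459 lower to 340 and 687 in FR2 against FR1, and from 561 and 387 to 715 and 309 in FR3 Klrg1- against FR2, and quantile normalization gave 443 and 355 in FR2 against FR1. The replicate block gave 7, 3 and 4 Gpr calls in the first 3 comparisons (1550, 750 and 812 over all genes) and lost Gpr52 against FR1 in both FR3 Klrg1- and FR2 (adjusted p = 0.055 and 0.0631) and Gpr174 against FR2 (0.0616). This block treats arrays of the first set with the same replicate number as pairs. This fit was not run for FR3 Klrg1+ against FR3 Klrg1-, where the FR3 Klrg1+ array shares no replicate number with the FR3 Klrg1- arrays of its set. Where a call changed, the cause was not tested. Genes above the array median on all arrays were 21 with quantile normalization or the mean of probe sets.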

Other observations

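The array titled as FR3 with the marker text of FR1 correlated at 0.973 to 0.975 with the arrays of the second set and at 0.904 to 0.917 with those of the first. On it Gpr65 was 11.35, Gpr183 10.14, Gpr174 9.71, Gpr171 9.00, Gpr55 7.93, Gpr132 7.69, Gpr18 7.62 and Gpr146 5.33. The Gpr65 value is higher than on any grouped array, and the Gpr18 value is lower than on any but the FR3 Klrg1+ array. The mean of the 4 measured sort markers (Cd4, Foxp3, Cd69 and Klrg1) was 10.58 on this array. It was 10.48 on the FR3 Klrg1+ array and 9.29 and 9.25 on FR3 Klrg1- replicates 3 and 4. In the first set it was 10.40 and 10.24 on FR3 Klrg1- replicates 1 and 2, 10.18 and 10.14 in FR2, and 9.81 and 10.08 in FR1. This mean joins Klrg1 with Cd69, which did not separate the CD69 gates of the first set. Which group the array belongs to was not tested.

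Gpr22, a receptor of heart and brain that lies inside Cog5, differed by 1.22 between FR3 Klrg1- replicates 3 and 4 and replicates 1 and 2 and was chosen here after its values were seen. Gpr34 differed by 1.12, Gpr171 by 1.04, Gpr75 by 0.97, Gpr155 by -0.82 and Gpr107 by -1.03 between the same arrays, which carry the same label.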
